A study of Rattus norvegicus with 16 samples.

Results

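The genes described here build the major histocompatibility complex (MHC) of the rat, called RT1, and the machinery that loads it with peptides. They were chosen by name: every Affymetrix probe set whose only gene symbol began with RT1-, or was B2m, Cd74, Ciita, Tap1, Tap2, Tapbp, Psmb8, Psmb9 or Psmb10. This gave 43 probe sets for 27 genes, of 20826 probe sets with 1 symbol (14217 genes) and 31042 probe sets tested. Of the 43 probe sets, 31 belonged to 18 RT1 genes, and 9 of the 27 genes had 2 or more probe sets. A probe set is a group of short oligonucleotides on the array whose signals are combined into 1 value.

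Left ventricles of 16 females, killed at about 7 months, were profiled with 1 array per animal. They were of generation 16 of a pair of lines selected from the N:NIH stock on treadmill running at about 11 weeks, HCR (High Capacity Runners) and LCR (Low Capacity Runners). In each line 4 rats stayed sedentary, and 4 ran uphill in intervals for 1.5 h on 5 days a week over 8 weeks. The comparisons ask how the lines differ and what training changes in each. No group carried a transgene, deletion or drug, and the stock is outbred, so that rats of 1 line need not carry the same RT1 alleles.

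MHC class I molecules are present on most cells and show peptides from inside the cell to CD8+ T cells. Their heavy chains pair with beta-2 microglobulin (B2m) and take up peptides that the immunoproteasome (Psmb8, Psmb9 and Psmb10) cuts, that the transporter of Tap1 and Tap2 carries into the endoplasmic reticulum, and that tapasin (Tapbp) helps to load. MHC class II molecules, made of an alpha and a beta chain and found mainly on macrophages, dendritic cells and B cells, show peptides from outside the cell to CD4+ T cells. They depend on the invariant chain Cd74, on the peptide exchanger RT1-DM and on the transactivator Ciita, and interferon gamma induces both pathways. The RT1 genes are among the most polymorphic of the rat genome and form families of close copies.

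The promoters of 4 of the genes that the results turn on are shown first, since class I, class II and immunoproteasome genes share known control elements. They are RefSeq's sequence of the reference assembly GRCr8, in windows of 300 bases that end shortly after the annotated start, and no sequence of the studied rats was read. Capitals mark matches on either strand to CCAAT (reverse ATTGG, the Y box of MHC promoters), to GAAANNGAAA (reverse TTTCNNTTTC, the core of interferon-stimulated response elements) and to TTCNNNGAA, the palindromic core of STAT sites. RT1-CE10 and RT1-S3 encode class I chains, RT1-Ba a class II alpha chain and Psmb8 an immunoproteasome subunit.
RT1-CE10 (chr20:3384930-3385229, minus strand): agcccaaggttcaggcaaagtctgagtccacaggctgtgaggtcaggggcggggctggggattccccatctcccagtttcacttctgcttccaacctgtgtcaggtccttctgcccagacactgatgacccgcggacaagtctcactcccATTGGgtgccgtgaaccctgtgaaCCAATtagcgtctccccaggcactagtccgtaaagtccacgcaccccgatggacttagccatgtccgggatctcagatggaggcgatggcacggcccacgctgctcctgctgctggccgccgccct
RT1-S3 (chr20:2675278-2675577, plus strand): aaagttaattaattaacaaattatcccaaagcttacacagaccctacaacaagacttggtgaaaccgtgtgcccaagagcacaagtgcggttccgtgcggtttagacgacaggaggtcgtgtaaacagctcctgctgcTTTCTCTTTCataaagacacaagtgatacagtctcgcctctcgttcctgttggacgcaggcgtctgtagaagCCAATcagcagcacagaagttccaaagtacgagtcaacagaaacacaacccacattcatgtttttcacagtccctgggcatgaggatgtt
RT1-Ba (chr20:4576807-4577106, plus strand): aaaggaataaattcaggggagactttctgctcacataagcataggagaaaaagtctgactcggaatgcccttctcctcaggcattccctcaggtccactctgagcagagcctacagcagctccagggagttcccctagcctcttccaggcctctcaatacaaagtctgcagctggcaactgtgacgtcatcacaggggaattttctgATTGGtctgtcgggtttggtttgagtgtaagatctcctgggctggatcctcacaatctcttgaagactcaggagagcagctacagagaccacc
Psmb8 (chr20:4656982-4657281, minus strand): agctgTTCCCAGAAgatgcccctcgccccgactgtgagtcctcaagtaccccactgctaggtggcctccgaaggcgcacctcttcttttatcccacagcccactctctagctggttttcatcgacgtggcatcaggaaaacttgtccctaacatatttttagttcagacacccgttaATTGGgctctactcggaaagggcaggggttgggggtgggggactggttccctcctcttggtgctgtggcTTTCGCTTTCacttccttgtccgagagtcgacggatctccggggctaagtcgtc

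RefSeq's table held promoters for 24 of the 27 genes. CCAAT was present in 18 of these 24 (75%), against 37.5% of all 33469 promoters, and GAAANNGAAA in 8 of 24 (33.3%), against 3.92%. The latter 8 were B2m, Tap1, Tap2, Tapbp, Psmb8, Psmb10, RT1-S3 and RT1-N3. TTCNNNGAA was present in 2 of 24 (8.33%), RT1-M3-1 and Psmb8, against 8.87% of all promoters. The class II promoter of RT1-Ba held 1 match, to CCAAT, while Psmb8 held 1 match to each of the 3 motifs. Those of RT1-CE12 and RT1-T24-4, which are not shown, held 0 matches to each of the 3. A match describes these letters and not a bound site.

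Array medians lay between 5.85 and 5.95 on the log2 scale. One library went against its label: Xist, the RNA of the inactive X chromosome in females, read 3.76 to 4.94 in HCR sedentary rat 5 (4 probe sets), and 7.56 or more in each of the other 15 rats. The Y-linked gene Eif2s3y read 3.53 in that rat and 3.33 to 3.5 in the others, and Uty, on the brighter of its probe sets, read 6.15, the lowest of 16, so these genes gave no high Y-linked signal and the sex of the rat was not settled. Values without this rat are given for the calls and the 2-level patterns. The cardiomyocyte genes Myh6, Tnni3, Tnnt2, Actc1, Myl2, Pln and Ryr2 stood for the labelled tissue, and the 6 that were measured had mean levels of 12.15 to 14.3. Macrophage markers had gene means of 4.71 (Adgre1) to 10.69 (Lyz2), with a median at the 73.5th percentile of all probe sets. Natural killer markers had means of 4.64 to 6.39, with a median at the 46.35th percentile. In whole tissue, fewer cells of a type and less RNA per cell cannot be told apart.

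The MHC probe sets varied more between rats of 1 group than most of the array. Their median residual standard deviation (SD), the spread left after each group's mean was removed, was 0.383 log2 units against 0.111 for all probe sets. Of the 43, 27 (62.8%) lay above 0.25, a level that 5.0% of all probe sets exceeded. By role, these were 15 of 20 class I chain probe sets, 8 of 11 class II chain probe sets, 3 of 7 for peptide supply, 1 of 2 for B2m and 0 of 3 for Cd74 and Ciita. Of the 27, 23 were thus probe sets of RT1 chains.

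**Figure D1:**
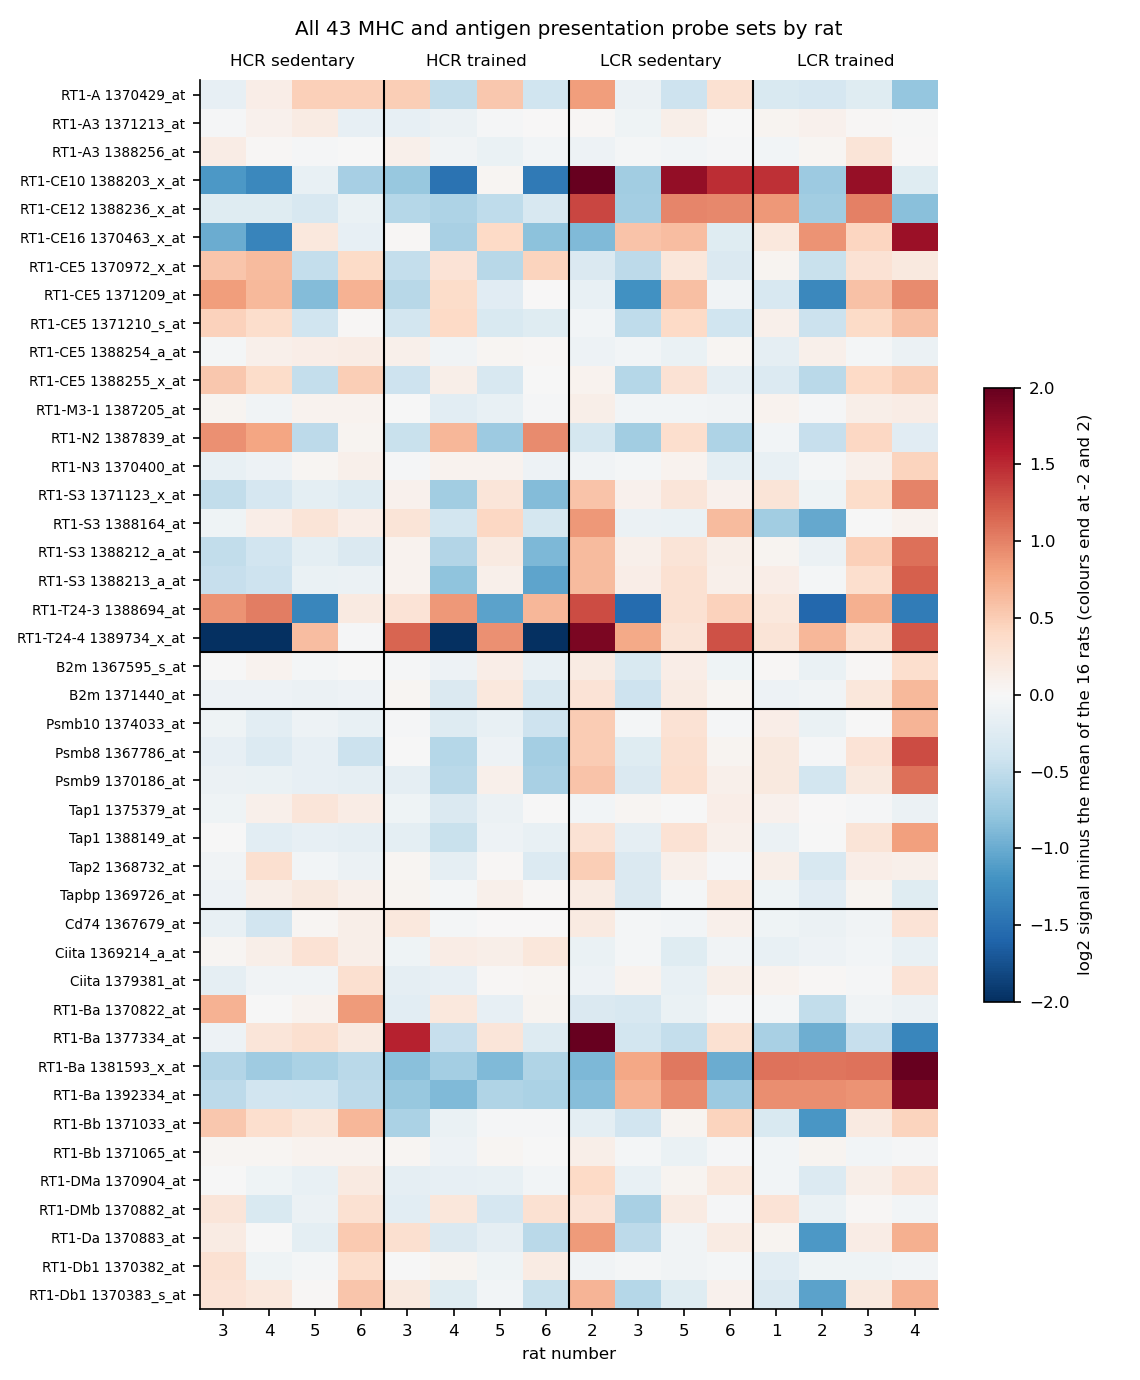
Heat map of all 43 probe sets (rows, named by gene and probe set) in the 16 rats (columns, by group and rat number), coloured by log2 signal minus the mean of the 16 rats. From top to bottom, black lines separate class I chains, B2m, peptide supply, and class II genes with Cd74 and Ciita. The strongest colours are in RT1-CE10, RT1-T24-3, RT1-T24-4 and RT1-Ba, where rats of 1 group take opposite colours.

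Several class I and class II chains gave a high signal in some rats and a low signal in others, with a gap between. A 2-level pattern was defined as a largest gap between neighbouring sorted values of at least 1 log2 unit and 40% of the range, with 2 or more rats on each side. This held for 3 of the 43 probe sets (6.98%), those of RT1-CE12, RT1-T24-3 and RT1-T24-4, against 0.0515% of all probe sets (16). With a gap of 30% of the range, a limit chosen after the values were seen, 7 of 43 (16.3%) met it, against 0.0805% of all (25). The 4 added were RT1-CE10 and 3 of the 4 probe sets of RT1-Ba. All 7 were RT1 probe sets, of 5 genes. A gap that set apart a single rat was found in 0 of 43 probe sets, against 0.0805% of all. Without HCR sedentary rat 5 the counts were again 3 and 7, of the same probe sets, against 0.058% and 0.0934% of all. Without LCR sedentary rat 3 or without LCR trained rat 4 the count of 3 became 5. These are descriptions with no test. Below, the values of a group stand in the order of its rat numbers: 3, 4, 5 and 6 in both HCR groups, 2, 3, 5 and 6 in sedentary LCR and 1, 2, 3 and 4 in trained LCR.

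RT1-T24-4, a class I gene read by probe set 1389734_x_at, was on the low side in 4 HCR rats and in 0 LCR rats. A probe set with the ending _x_at can bind close copies, and the part of other RT1 genes in this signal was not tested. HCR sedentary rats read 5.7, 5.9, 8.7 and 8.05, and HCR trained rats 9.25, 5.54, 9.0 and 5.87. LCR sedentary rats read 9.96, 8.84, 8.33 and 9.35, and LCR trained rats 8.34, 8.74, 8.38 and 9.32. Thus 4 HCR rats lay at or below 5.9, 2 in each group, and every other rat at or above 8.05, a gap of 2.15 log2 units (48.7% of the range). The line difference over training was -1.65 ± 0.56 (standard error, SE), a fitted fold of 3.15, with a limma adjusted p of 0.0928, so the probe set was not called (-1.92 and 0.0846 without HCR sedentary rat 5). The HCR mean joins both levels, so this fold describes neither HCR level.

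RT1-T24-3, the next RT1 gene along chromosome 20 in RefSeq's table, had low rats in both lines. In HCR, the sedentary rats read 9.53, 9.65, 7.32 and 8.81 and the trained rats 8.9, 9.5, 7.56 and 9.29. In LCR, the sedentary rats read 9.94, 7.1, 8.94 and 9.09 and the trained rats 8.84, 7.06, 9.35 and 7.23. The low side held 2 HCR rats and 3 LCR rats, and the gap was 1.24 log2 units (43.2% of the range). Of the 16 rats, 7 were high on both RT1-T24 genes and 0 were low on both. The difference between the lines was 0.38 over training (0.63 without HCR sedentary rat 5), and the groups overlapped.

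RT1-CE12 and RT1-CE10, further class I genes, were high only in LCR rats. For RT1-CE12, the HCR values were 9.26, 9.27, 9.19 and 9.38 in sedentary and 8.94, 8.89, 9.0 and 9.19 in trained rats. The LCR values were 10.85, 8.83, 10.49 and 10.47 in sedentary and 10.38, 8.81, 10.52 and 8.67 in trained rats. Thus 5 of 8 LCR rats were high and 3 were low, as were all 8 HCR rats, and the gap was 1.01 log2 units (46.1% of the range). The line difference was -0.74 ± 0.29 (limma adjusted p = 0.136) and was not called.

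For RT1-CE10, values in HCR were 6.79, 6.66, 7.79 and 7.28 (sedentary) and 7.18, 6.47, 7.99 and 6.53 (trained). Values in LCR were 10.04, 7.25, 9.71 and 9.42 (sedentary) and 9.4, 7.22, 9.69 and 7.7 (trained). Every rat was on the same side as for RT1-CE12 (16 of 16), and the gap was 1.41 log2 units (39.4% of the range). Over training RT1-CE10 was lower in HCR by a fitted fold of 3.29, at -1.72 ± 0.42 with a limma adjusted p of 0.0357. The mean of LCR joins both levels, so this fold describes neither LCR level. The call was lost without any 1 of 8 arrays (HCR sedentary rat 4, HCR trained rats 4 and 6, LCR sedentary rats 2, 5 and 6, LCR trained rats 1 and 3) with adjusted p of 0.0513 to 0.0748, and kept without HCR sedentary rat 5 (adjusted p = 0.0497). The 8 LCR rats fell on the same side for RT1-T24-3 as for RT1-CE12, while over both lines 10 of 16 rats did. Probe sets ending in _x_at, as both of these do, can bind close copies, and the part of the other RT1-CE genes in their signal was not tested. The same limit holds for the probe sets of RT1-T24-4 and RT1-CE16, and for those of RT1-Ba, RT1-S3 and RT1-CE5 with that ending.

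RT1-Ba, the alpha chain of the class II molecule RT1-B, had probe sets that differed in behaviour. On probe set 1392334_at, HCR sedentary rats read 8.48, 8.63, 8.61 and 8.49, and HCR trained rats 8.25, 8.13, 8.4 and 8.37. The values in LCR were 8.16, 9.7, 9.95 and 8.28 in sedentary and 9.94, 9.94, 9.91 and 10.88 in trained rats. All 8 HCR rats and LCR sedentary rats 2 and 6 were on the low side, and the other 6 LCR rats on the high side, across a gap of 1.07 log2 units (38.8% of the range).

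Probe set 1381593_x_at of RT1-Ba split the rats the same way in 16 of 16. In HCR, the sedentary rats read 8.13, 8.0, 8.08 and 8.17 and the trained rats 7.87, 8.03, 7.83 and 8.11. LCR sedentary rats read 7.81, 9.48, 9.77 and 7.72, and LCR trained rats 9.79, 9.78, 9.8 and 11.01. The gap was 1.3 log2 units (39.6% of the range).

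The third probe set, 1377334_at, was high in HCR trained rat 3 at 8.28 and LCR sedentary rat 2 at 8.93. The other 14 rats lay between 5.43 and 7.05. HCR sedentary rats read 6.64, 6.97, 7.05 and 6.92, and HCR trained rats 4, 5 and 6 read 6.28, 6.98 and 6.48. In LCR, sedentary rats 3, 5 and 6 read 6.37, 6.25 and 7.04, and LCR trained rats read 6.09, 5.75, 6.28 and 5.43. No rat was high on this probe set and on the other pair together, and LCR trained rat 4, the highest of all on that pair, was the lowest here. On the fourth probe set, 1370822_at, values ran from 7.05 to 8.4 with no such gap.

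Over training, RT1-Ba was lower in HCR on 1392334_at, at -1.17 ± 0.23 log2 units or 2.25-fold (limma adjusted p = 0.0132), and on 1381593_x_at, at -1.36 ± 0.27 or 2.58-fold (limma adjusted p = 0.0138). As for RT1-CE10, the LCR mean joins both levels, so these folds describe neither LCR level. In trained rats alone the differences were -1.88 ± 0.32 (adjusted p = 0.0376) and -2.13 ± 0.38 (adjusted p = 0.0437), and the trained groups did not overlap on either. In sedentary rats, where 2 of the 4 LCR rats were on the low side, they were -0.47 and -0.6 and were not called. On 1377334_at and 1370822_at the differences over training had the opposite sign, 0.43 and 0.37, and neither was called (adjusted p of 0.0790 for 1370822_at). The calls in trained rats were lost on both probe sets without any 1 of 11 arrays, those of all 8 HCR rats and of LCR trained rats 1, 3 and 4 (without HCR sedentary rat 5, adjusted p of 0.0617 and 0.0702). The calls over training held on both probe sets in 21 of 21 alternatives. The comparison of trained against sedentary LCR rats gave 1.15 and 1.40 with adjusted p of 0.539 and 0.521, and the difference in training response between the lines gave -1.41 and -1.54 with an adjusted p of 0.475 for each.

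**Figure D2:**
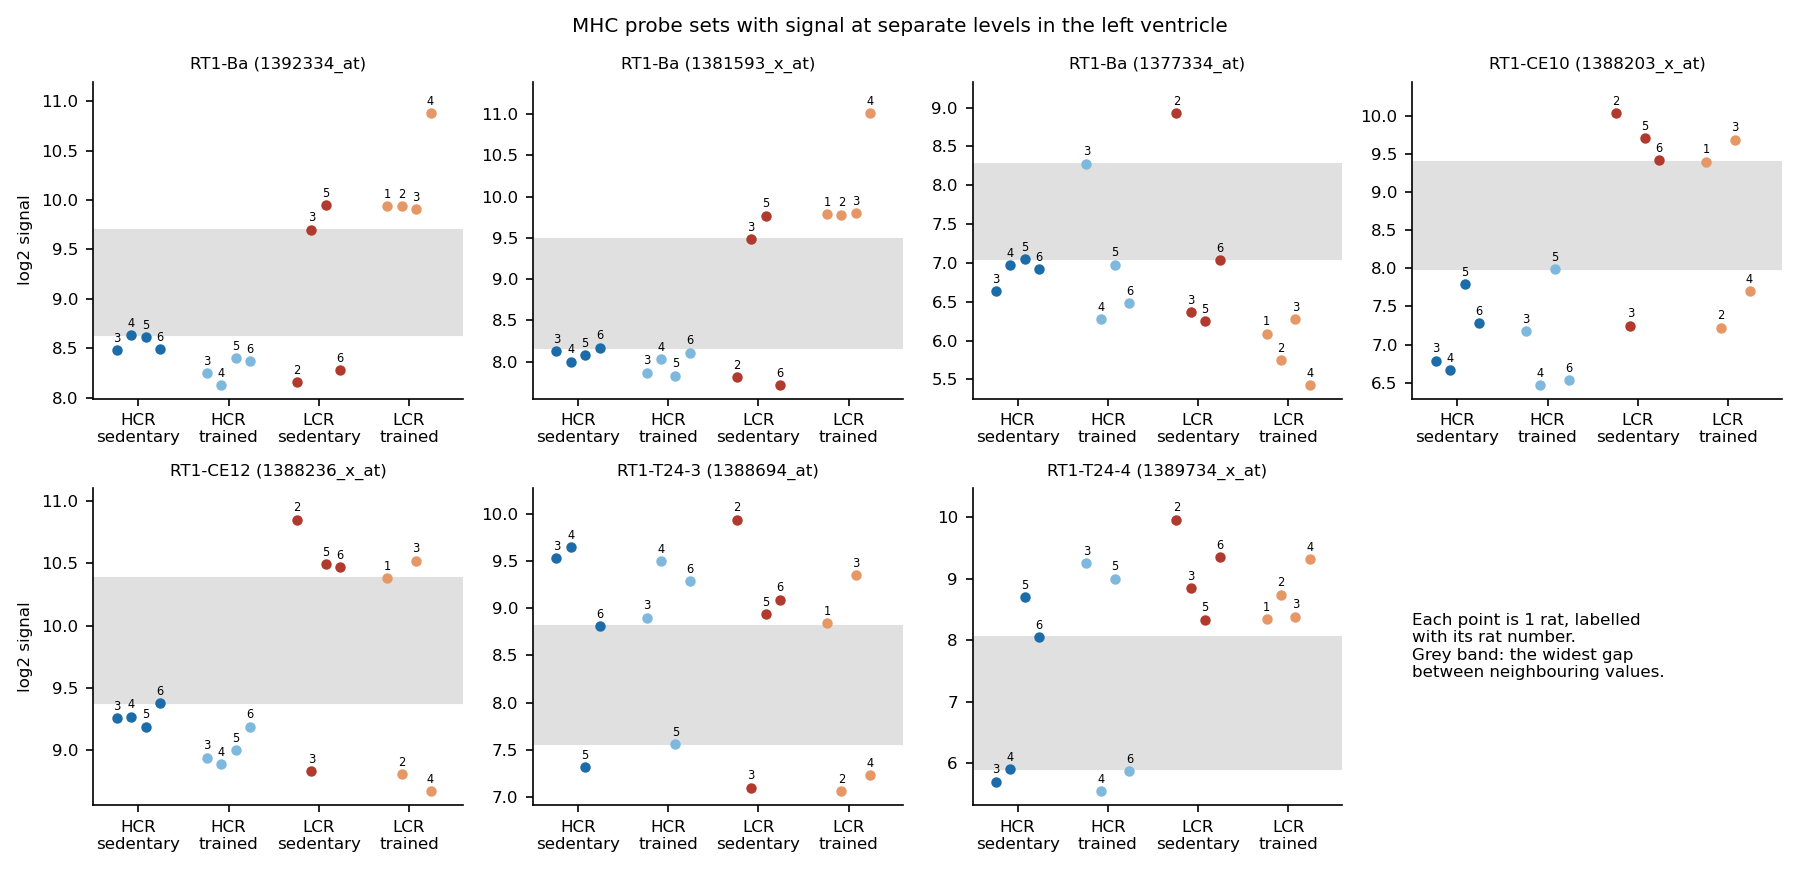
Log2 signal of the 7 probe sets at separate levels, by group, with 1 point per rat labelled by rat number and a grey band over the widest gap. RT1-T24-4 is low in HCR rats alone, at or below 5.9, and RT1-CE10, RT1-CE12 and the first pair of RT1-Ba probe sets are high in LCR rats alone.

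Across RT1-Ba (1392334_at), RT1-CE12, RT1-T24-3 and RT1-T24-4, the 16 rats showed 6 of the 16 possible combinations of high and low. HCR had 3 and LCR had 3, and 0 were found in both lines. In HCR, 4 rats were low on RT1-T24-4 alone beside the RT1-Ba and RT1-CE12 that all HCR rats lacked at the high level, 2 rats were low on RT1-T24-3 and 2 on neither. In LCR, 3 rats were high on all 4 genes, 3 were high on RT1-Ba and RT1-T24-4 alone, and 2 were high on all but RT1-Ba. Each combination occurred in sedentary and in trained rats of its line, except the last, which LCR sedentary rats 2 and 6 held. Without HCR sedentary rat 5 there were again 6, but of the HCR rats low on RT1-T24-3 only trained rat 5 was left. RT1-CE16, a class I gene with values of 6.63 to 9.66, met neither limit, and its largest gap of 0.8 log2 units (26.5% of the range) set apart LCR trained rat 4 alone. Its line difference was -0.83 ± 0.29 (limma adjusted p = 0.0994). RefSeq's table places 22 of the 26 member genes it holds on chromosome 20, with RT1-T24-4 next to RT1-T24-3 among the RT1 genes, and RT1-CE12 and RT1-CE10 in 1 cluster of RT1-CE genes. The alleles of these rats were not typed here, and whether a low value reflects less RNA or an allele that binds the probes less was not tested.

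The class I gene RT1-S3 was lower in HCR on 3 of its 4 probe sets. On 1388212_a_at, the brightest, the HCR values were 8.16, 8.27, 8.45 and 8.36 in sedentary and 8.72, 8.06, 8.84 and 7.75 in trained rats. In LCR, the sedentary rats read 9.28, 8.75, 8.91 and 8.77 and the trained rats 8.71, 8.53, 9.13 and 9.76. The sedentary groups did not overlap, while the trained groups did. The line difference over training was -0.65 ± 0.17 (limma adjusted p = 0.0470).

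RT1-S3 probe set 1371123_x_at read 7.22, 7.37, 7.51 and 7.46 in HCR sedentary rats and 7.8, 7.02, 7.95 and 6.84 in HCR trained rats. The LCR values were 8.29, 7.8, 7.95 and 7.8 in sedentary and 7.97, 7.63, 8.08 and 8.71 in trained rats. The difference was -0.63 ± 0.17 (limma adjusted p = 0.0438). In each line the trained rats spanned a wider range than the sedentary ones.

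RT1-S3 probe set 1388213_a_at read 7.22, 7.27, 7.55 and 7.57 in HCR sedentary rats and 7.76, 6.87, 7.78 and 6.63 in HCR trained rats. Values in LCR were 8.32, 7.81, 7.99 and 7.78 (sedentary) and 7.82, 7.65, 8.02 and 8.88 (trained). The difference was -0.70 ± 0.19 (limma adjusted p = 0.0470). The fourth probe set, 1388164_at, differed by 0.10 over training, and its values ran from 7.05 to 8.95 with overlap of the lines. These calls were each lost without any 1 of 12 or 13 of the 16 arrays, among them HCR sedentary rat 5 (adjusted p of 0.0725 to 0.0752) and LCR trained rat 4 (0.0787 to 0.0802). HCR rats 3 and 4 (sedentary) and 4 and 6 (trained), which were low on RT1-T24-4, were also the 4 lowest HCR rats on these 3 probe sets.

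The same 4 HCR rats were at one end of the line on further class I probe sets, which were chosen after their values were seen. On RT1-CE16 they read 6.63 to 7.29, against 7.78 to 8.35 in the other 4 HCR rats. On RT1-CE10 they read 6.47 to 6.79 against 7.18 to 7.99, within the low side of that probe set. On RT1-T24-3 they were the highest HCR rats, at 9.29 to 9.65 against 7.32 to 8.9. RT1-A, a class Ia gene, read 6.68, 6.99, 6.36 and 6.46 in them and 7.32, 7.32, 7.35 and 7.39 in the other 4 HCR rats. RT1-N2 read 6.67, 6.54, 6.42 and 6.7 in them and 5.23, 5.82, 5.32 and 5.03 in the others, so it ran the other way. In LCR, RT1-A read 7.68, 6.73, 6.44 and 7.15 in sedentary rats and 6.55, 6.51, 6.61 and 6.07 in trained rats. LCR values of RT1-N2 lay between 5.07 and 6.17. The line differences of 0.26 for RT1-A and 0.42 for RT1-N2 over training were not called.

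RT1-CE5, a class I gene with 5 probe sets, varied between rats on 4 of them. On 1371209_at, values in HCR were 7.73, 7.54, 6.02 and 7.58 (sedentary) and 6.33, 7.26, 6.66 and 6.9 (trained). The values in LCR were 6.74, 5.67, 7.49 and 6.82 in sedentary and 6.57, 5.6, 7.47 and 7.83 in trained rats. HCR sedentary rat 5, HCR trained rats 3 and 5, and LCR rats 3 (sedentary) and 2 (trained) were among the low rats here. Over training the 5 differed by -0.02 to 0.23, and none was called. The fifth probe set, 1388254_a_at, was dim and nearly flat at 4.31 to 4.64. The remaining class I probe sets, those of RT1-A3, RT1-M3-1 and RT1-N3, had line differences between -0.07 and 0 over training.

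Over training, 7 of the 43 probe sets (16.3%), of 4 genes, were called for the line difference, against 3.84% of all probe sets. Of these, 6 were lower in HCR and 1 was higher, and the members' median difference was -0.035 against 0.015 for all probe sets. With no adjustment 17 (39.5%) had a p under 0.05, against 24.1% of all probe sets. Without HCR sedentary rat 5, 4 of 43 (9.3%) were called, against 1.7% of all. The count of 7 was 3 or 4 (6.98% or 9.3%) without any 1 of 11 arrays (all 4 HCR sedentary rats, HCR trained rats 4 and 6, LCR sedentary rats 2, 5 and 6, and LCR trained rats 3 and 4). The share of all probe sets was 1.68% to 4.7% in these fits. Without LCR trained rat 2 the count was 11 (25.6%), and the share of all probe sets also rose, to 8.3%. By role, the lower calls were 4 of 20 class I chain probe sets and 2 of 11 class II chain probe sets, and the higher one was 1 of 3 for Cd74 and Ciita. None of the 43 had 8 HCR values apart from 8 LCR values, against 0.383% of all probe sets. In sedentary rats 1 of 43 (2.33%) was called, against 4.99% of all. That share of all probe sets itself depended on single arrays. It was 0.361% without HCR sedentary rat 5, 0.332% without HCR sedentary rat 4 and 0.113% without LCR sedentary rat 6, with 0 of 43 called in each case, and 6.42% without LCR trained rat 2, with 3 of 43 called (6.98%). Their groups did not overlap in 7 of 43, against 18.3% of all probe sets: Psmb10 and 3 probe sets of RT1-S3 with HCR below, and Ciita, RT1-A3 (1388256_at) and RT1-Ba (1370822_at) with HCR above. In trained rats 2 of 43 (4.65%) were called, against 0.0966% of all, and 2 did not overlap, against 3.14%. Both called probe sets in trained rats were of RT1-Ba.

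**Figure D3:**
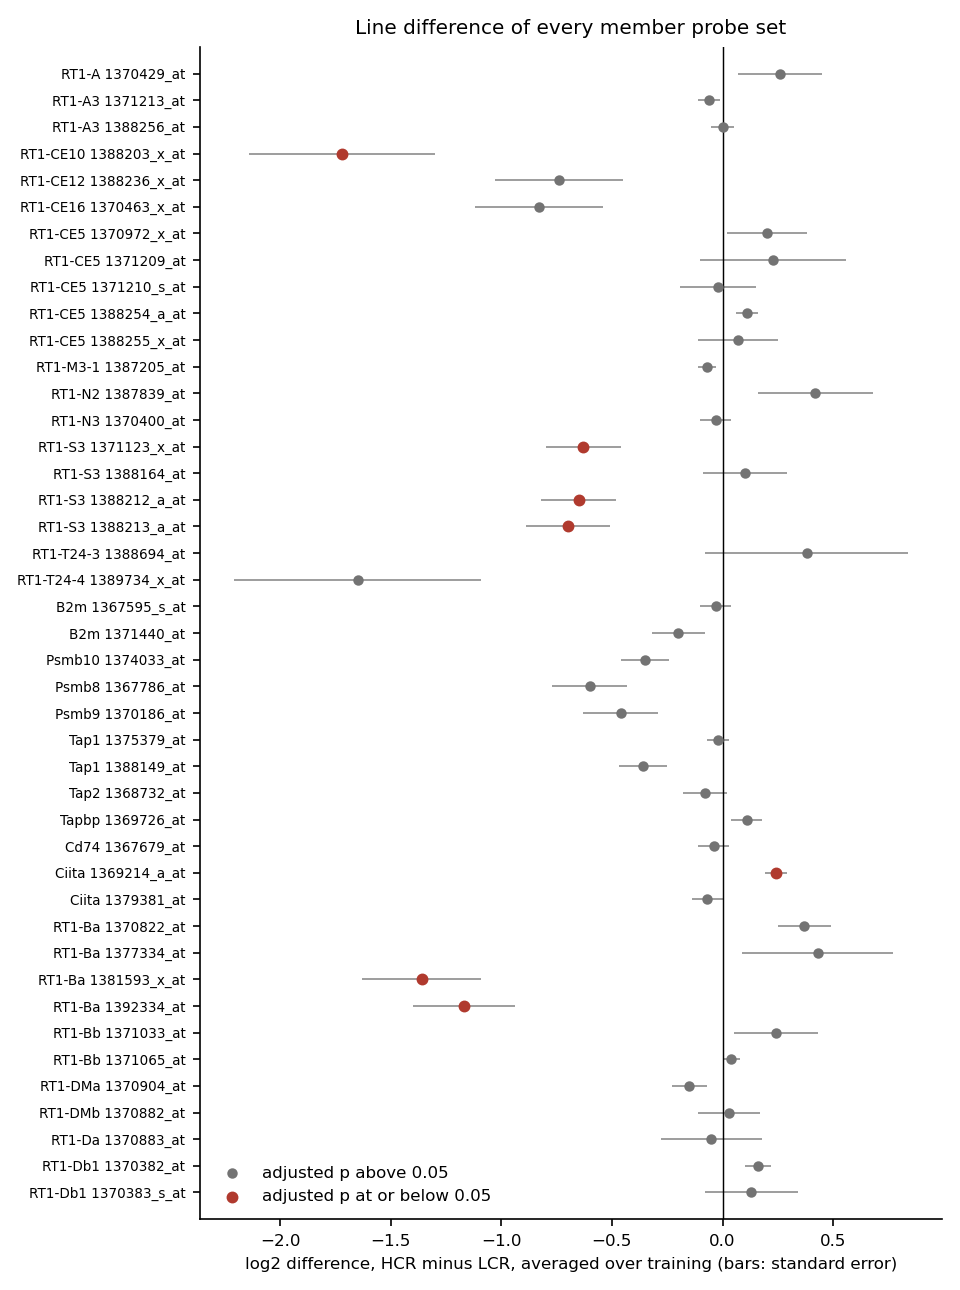
Line difference (HCR minus LCR, averaged over training, log2 units) of all 43 probe sets, with standard errors as bars and called probe sets in red. The 7 called are RT1-CE10, 3 of RT1-S3 and 2 of RT1-Ba below 0, and Ciita 1369214_a_at above 0.

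The 7 probe sets of peptide supply had 0 limma calls for the line difference, with 4 at an unadjusted p under 0.05 over training, 4 in trained and 0 in sedentary rats. Psmb8, an immunoproteasome subunit, read 7.84, 7.73, 7.84 and 7.57 in HCR sedentary rats and 8.0, 7.43, 7.9 and 7.33 in HCR trained rats. LCR sedentary rats read 8.51, 7.76, 8.33 and 8.05, and LCR trained rats 8.2, 7.98, 8.27 and 9.31. The lines overlapped. The difference over training was -0.60 ± 0.17 (limma adjusted p = 0.0538), just above the threshold, and it was -0.45 without LCR trained rat 4 (adjusted p = 0.0648).

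Psmb9, encoded beside Tap1, read 8.93, 8.92, 8.89 and 8.87 in HCR sedentary rats and 8.87, 8.51, 9.16 and 8.41 in HCR trained rats. In LCR, the sedentary rats read 9.62, 8.77, 9.39 and 9.15 and the trained rats 9.25, 8.69, 9.25 and 10.15. The difference was -0.46 ± 0.17 (limma adjusted p = 0.113).

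Psmb10, encoded outside the MHC on chromosome 19, read 7.67, 7.55, 7.66 and 7.61 in HCR sedentary rats and 7.73, 7.5, 7.61 and 7.34 in HCR trained rats. The LCR values were 8.26, 7.72, 8.04 and 7.74 in sedentary and 7.89, 7.62, 7.75 and 8.44 in trained rats. The sedentary groups did not overlap, and the difference over training was -0.35 ± 0.11 (limma adjusted p = 0.0699).

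Tap1, on its brighter probe set 1388149_at, read 6.89, 6.68, 6.73 and 6.72 in HCR sedentary rats and 6.7, 6.45, 6.79 and 6.75 in HCR trained rats. Values in LCR were 7.18, 6.72, 7.19 and 6.99 (sedentary) and 6.77, 6.88, 7.16 and 7.72 (trained). The difference was -0.36 ± 0.11 (limma adjusted p = 0.0717). Without LCR trained rat 2, Psmb8, Psmb9, Psmb10 and Tap1 would all be called lower in HCR (limma adjusted p of 0.0251, 0.0361, 0.0325 and 0.0417). Leaving out that rat also raised the share of all probe sets called from 3.84% to 8.3%. Of the 16 fits that left out 1 array, Psmb9 and Psmb10 were not called in 15, Tap1 in 14 and Psmb8 in 13. With all rats, these 4 genes shared a negative sign and LCR trained rat 4 as the highest rat.

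**Figure D4:**
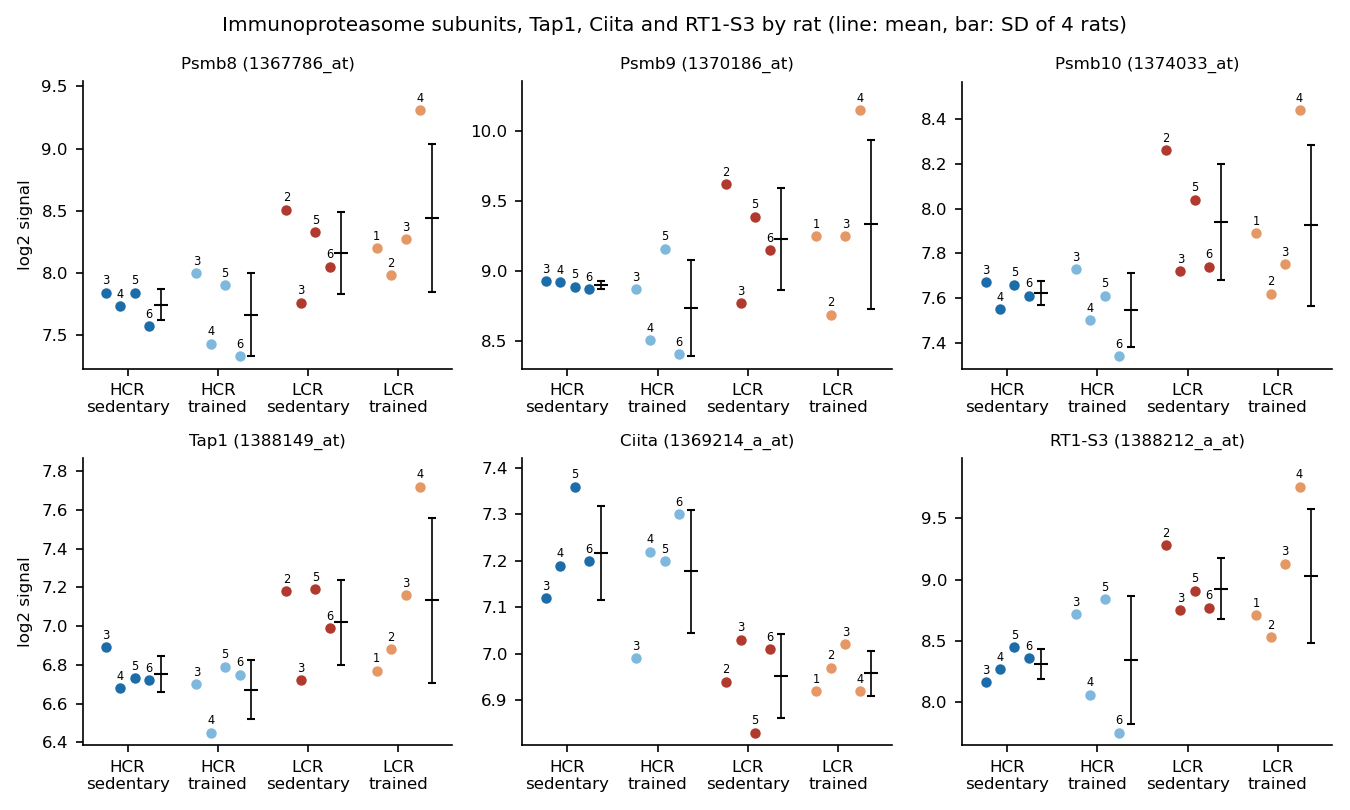
Log2 signal of Psmb8, Psmb9, Psmb10, Tap1, Ciita and RT1-S3 by group, with 1 point per rat labelled by rat number, and the mean and SD of 4 rats at the right of each group. LCR trained rat 4 is the highest point for Psmb8, Psmb9, Psmb10, Tap1 and RT1-S3, and Ciita lies higher in HCR.

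The other loading genes had small differences between the lines and were not called. Tap2 read 6.37, 6.75, 6.38 and 6.31 in HCR sedentary rats, 6.48, 6.26, 6.46 and 6.16 in HCR trained rats, 6.92, 6.14, 6.54 and 6.41 in LCR sedentary rats, and 6.55, 6.11, 6.57 and 6.53 in LCR trained rats. Tapbp read 7.67, 7.88, 7.96 and 7.86, then 7.82, 7.72, 7.87 and 7.78, then 7.93, 7.47, 7.72 and 7.98, then 7.68, 7.54, 7.82 and 7.52 in the same order of rats. Their differences over training were -0.08 and 0.11.

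B2m, the light chain of all class I molecules, read 13.12, 13.2, 13.09 and 13.12 on its brighter probe set in HCR sedentary rats and 13.11, 13.03, 13.26 and 12.99 in HCR trained rats. The values in LCR were 13.29, 12.82, 13.27 and 13.05 in sedentary and 13.15, 13.0, 13.15 and 13.47 in trained rats. The line difference was -0.03 over training, and -0.20 on the other probe set. Over the 16 rats the brighter probe set ran from 12.82 to 13.47, and the groups overlapped.

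Ciita, the master transactivator of class II genes, was higher in HCR on probe set 1369214_a_at. HCR sedentary rats read 7.12, 7.19, 7.36 and 7.2, and HCR trained rats 6.99, 7.22, 7.2 and 7.3. LCR sedentary rats read 6.94, 7.03, 6.83 and 7.01, and LCR trained rats 6.92, 6.97, 7.02 and 6.92. HCR trained rat 3 was the only HCR rat within the LCR range. The difference was 0.24 ± 0.05 over training, a fold of 1.18 (limma adjusted p = 0.0183), and 0.27 ± 0.07 in sedentary rats (limma adjusted p = 0.0451). The sedentary call was lost without any 1 of 9 arrays, HCR sedentary rat 5 among them (0.22, adjusted p = 0.136). The call over training held without any 1 of the 16, HCR sedentary rat 5 included (0.22, adjusted p = 0.0399). The dimmer probe set 1379381_at differed by -0.07.

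Cd74, the invariant chain that guides class II molecules, read 11.85, 11.63, 12.05 and 12.13 in HCR sedentary rats and 12.21, 11.97, 12.01 and 12.02 in HCR trained rats. In LCR, the sedentary rats read 12.18, 11.97, 11.95 and 12.1 and the trained rats 11.92, 11.89, 11.94 and 12.28. The line difference was -0.04 and the groups overlapped. Among the other class II chains, 7 probe sets of RT1-Bb, RT1-Da, RT1-Db1, RT1-DMa and RT1-DMb differed by -0.15 to 0.24 over training and none was called. RT1-Da, the alpha chain of RT1-D, ran from 8.23 in LCR trained rat 2 to 10.23 in LCR sedentary rat 2, and RT1-Db1 (1370383_s_at), its beta chain, from 6.65 to 8.41 with LCR trained rat 2 also lowest.

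Training changed no MHC probe set past the threshold in either line. In HCR, 0 of 43 were called by limma, as were 0% of all probe sets. At an unadjusted p under 0.05 there were 3 (6.98%) against 13.9% of all, and 35 of 43 differences (81.4%) were negative against 54.4% of all, with a median of -0.093 against -0.013 for all probe sets. The lowest adjusted p in HCR was 0.255, for Tap1 probe set 1375379_at, at -0.22 ± 0.08. RT1-Bb (1371033_at), the beta chain that pairs with RT1-Ba, read 9.0, 8.8, 8.68 and 9.13 in HCR sedentary rats and 7.83, 8.32, 8.43 and 8.43 in HCR trained rats. These groups did not overlap, and the difference was -0.65 ± 0.26 (limma adjusted p = 0.308). Sedentary and trained rats did not overlap in 2 of 43 probe sets in HCR (RT1-Ba 1392334_at was the other). In LCR this held for 1 of 43 (RT1-Ba 1381593_x_at, higher in trained rats). The share of all probe sets was not counted for training, so these counts have no background to be judged against.

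In LCR, 0 of 43 were called for training, against 0.00322% of all probe sets, with 5 (11.6%) at an unadjusted p under 0.05 against 5.57% of all, and a median of 0.026 against 0.005. Averaged over the lines 0 of 43 were called, against 0.00644% of all, with 4 (9.3%) at an unadjusted p under 0.05 against 9.24% of all. For the difference in training response between the lines 0 of 43 were called, against 0% of all, with 3 at an unadjusted p under 0.05 (RT1-Ba on 2 probe sets, and RT1-M3-1) against 3068 of all 31042 (6.98% against 9.88%). The sedentary and trained comparisons share the arrays of their groups, so their values are not independent of each other.

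Probe sets of 1 gene did not always have the same sign. Of the 9 genes with 2 or more, 4 had line differences of both signs over training: Ciita, RT1-Ba, RT1-CE5 and RT1-S3. In trained rats 5 did (those 4 and RT1-Db1), and in sedentary rats 3 (B2m, RT1-Ba and Tap1). Some of these signs rested on differences near 0. The only negative probe set of RT1-CE5 over training was at -0.02 ± 0.17. That of RT1-Db1 in trained rats was at -0.01 ± 0.3, and the positive one of B2m in sedentary rats at 0.02 ± 0.11. For Ciita, RT1-Ba and RT1-S3, some probe sets were called over training and others were not. The largest span was that of RT1-Ba in trained rats, from -2.13 on 1381593_x_at to 1.12 on 1377334_at. The part of close gene copies and of alleles in this disagreement was not tested.

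The calls among genes that act with these pathways stand beside 3.84% of all probe sets called over training and 4.99% in sedentary rats. Of 10 genes of class I loading and peptide trimming, 1 was called lower in HCR over training: Psme2, a subunit of the proteasome activator PA28, at -0.30 ± 0.08 (limma adjusted p = 0.0430). Of 11 genes of class II transcription, processing and costimulation, 1 was called lower in HCR: Rfxap, a part of the RFX complex that binds class II promoters, at -0.18 ± 0.04 over training (limma adjusted p = 0.0307) and -0.23 ± 0.06 in sedentary rats (limma adjusted p = 0.0422). Of 8 measured genes of interferon signalling 0 were called by limma in any comparison, with 1 at an unadjusted p under 0.05 over training, and the lowest adjusted p for the line difference over training was that of Irf1, an interferon-induced activator of class I and immunoproteasome genes, at -0.29 ± 0.10 (limma adjusted p = 0.0991). In trained rats 0 of these genes were called, and 0 were called for training in either line. Without HCR sedentary rat 5 the calls of Psme2 (adjusted p = 0.0752) and Rfxap (0.0601 over training, 0.111 in sedentary rats) were lost.

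Genes that lie between the RT1 genes on chromosome 20 but are no members differed between the lines at about the rate of the array. RefSeq's GRCr8 table placed 91 such genes with 116 probe sets between RT1-M2 and RT1-A1. Of these 116, 4 (3.45%) were called over training: Aif1, a macrophage gene, at 0.21, and the transcription elongation factor subunit Nelfe, the lymphotoxin chain Ltb and the dehydrogenase Hsd17b8 at -0.23, -0.27 and -0.24. In sedentary rats 4 were called: Aif1 at 0.40 ± 0.08 (limma adjusted p = 0.0220), Nelfe at -0.25, Hsd17b8 at -0.27 and the stress response gene Ier3 at -0.41. A 2-level pattern was found in 0 of the 116, against 0.0515% of all probe sets. At so low a share, 116 probe sets are too few to tell the neighbours from the array. Without HCR sedentary rat 5, 3 of the 116 were called over training, Nelfe and Hsd17b8 among them, against 1.7% of all probe sets. Aif1 and Ltb were not called in that fit (limma adjusted p of 0.0822 and 0.0921). In sedentary rats 0 of the 116 were then called, against 0.361% of all.

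One rat stood out across the presentation genes. LCR trained rat 4 had the highest of 16 values on 18 of the 43 probe sets, against 7.26% of all probe sets, among them both of B2m, Cd74, Psmb8, Psmb9 and Psmb10. The same rat was lowest on 3 (RT1-A, RT1-CE12 and RT1-Ba 1377334_at), against 12.6% of all, the largest such share of any rat. LCR sedentary rat 2 was highest on 11, against 4.88% of all, and LCR trained rat 2 lowest on 9, against 3.82% of all. List scores, the mean over a list's genes of the log2 value minus the gene's mean over the 16 rats, are given beside these values. LCR trained rat 4 had the highest score on 6 of 11 lists, at 0.82 for 9 interferon response genes, 0.38 for 11 macrophage genes, 0.47 for 6 natural killer genes and 0.26 for 4 dendritic cell genes. LCR trained rat 2 had the lowest interferon response score, -0.55. The part of interferon response and of immune cell number in the MHC values was not tested.

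Between the lines, the marker lists with called genes were those of natural killer, dendritic and B cells. Of all probe sets, 3.84% were called over training and 4.99% in sedentary rats. Of 6 natural killer genes 2 were lower in HCR over training, the receptor chains Klrd1 at -0.86 ± 0.13 (limma adjusted p = 0.00426) and Klrb1a at -0.39 ± 0.08 (limma adjusted p = 0.0150), and the same 2 were called in sedentary rats. Of 4 measured dendritic cell genes, Itgax was lower at -0.47 and the transcription factor Batf3 higher at 0.15, and of 4 measured B cell genes the receptor subunit Cd79b was higher at 0.22. Batf3 was also called higher in sedentary rats, at 0.22 (limma adjusted p = 0.0421). Of 11 macrophage, 9 T cell, 5 endothelial, 6 cardiomyocyte and 9 interferon response genes 0 were called by limma for the line difference, and at an unadjusted p under 0.05 over training there were 1, 0, 2, 0 and 1. Without HCR sedentary rat 5, the calls of Klrd1, Klrb1a, Itgax and Cd79b over training held. Those of Batf3 (limma adjusted p = 0.0825 over training, 0.113 in sedentary rats) and of both natural killer genes in sedentary rats (0.0627 and 0.0892) were lost. Their part in the line differences of the MHC genes was not tested.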

How the data were processed

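The authors made the deposited log2 values with RMA (background correction, quantile normalization of probes, 1 summary value per probe set), per the submitters' processing notes and the design text, where RMA and limma carry no version. They ran from 3.24 to 14.54. No source used here states the base of the logarithm, which was taken as 2, and another base would change folds but no sign or test. Of 31099 probe sets, 57 controls were left out and 31042 tested with no filter on signal. No column of another sample was present. Groups and rat numbers came from the sample titles.

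The fit used limma 3.58.1 (R 4.3.3) and all 16 arrays (1 mean per group, 12 residual degrees of freedom, two-sided tests). P-values were adjusted by Benjamini-Hochberg over all 31042 probe sets within a comparison, and called at 0.05 or less. The fit assumes 1 spread for all groups, which probe sets at separate levels do not have. The procedure was tested on artificial data. With 4 arrays per group, the precision is limited by their number. The lines are closed populations, so that rats of a line share ancestry, and the family of each rat was not used.

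Gene names came from the platform annotation, which can be old. Probe sets with several symbols that include a member (6) were not used. Gene IDs of 26 of 27 genes matched RefSeq's GRCr8 table. Values of every rat are given for called probe sets, for those at separate levels and for the brightest probe set of each gene outside RT1; other members are given by range or chosen after their values were seen. The members, lists and rules were chosen with earlier results of these data known. Alternatives were array centring, quantile normalization of the summarised values, a filter at the median level, eBayes with trend and robust settings, only the compared groups, a replicate block, and leaving out each array.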

Additional observations from a re-analysis of the deposited data

Results flagged for a closer look

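In groups of 4 rats, a value was marked where its gap to the nearest other rat, divided by the group's range, was above Dixon's critical value. Of 172 groups 10 were marked, and chance marks about 1 in 20. LCR trained rat 4 was the high one for Cd74 (12.28, others 11.89 to 11.94) and for RT1-Ba on 1381593_x_at (11.01, others 9.78 to 9.8) and 1392334_at (10.88, others 9.91 to 9.94). LCR trained rat 2 was the low one for Tap2 (6.11, others 6.53 to 6.57) and for RT1-Ba on 1370822_at (7.05, others 7.43 to 7.5). HCR sedentary rat 5, whose Xist value goes against its label, was low for RT1-CE5 on 1371209_at (6.02, others 7.54 to 7.73) and 1388255_x_at (6.07, others 6.92 to 7.09). RT1-CE5 on 1371210_s_at was high in HCR trained rat 4 (6.0, others 5.24 to 5.36). RT1-M3-1 was low in HCR sedentary rat 4 (7.21, others 7.34 to 7.36) and high in LCR sedentary rat 2 (7.4, others 7.22 to 7.23).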

How the results depend on the processing

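No called difference changed sign in any alternative. Of the 43 differences over training 14 did, all uncalled and of at most 0.24 in size (such as B2m, Cd74 and RT1-Bb); 13 did in sedentary and 11 in trained rats. Values for other genes were refitted only without HCR sedentary rat 5. Over training, 7 member probe sets were called, against 3.84% of all probe sets. The count was 3 after quantile normalization (2.33% of all) and 3 with trend and robust eBayes (3.53% of all). It was 8 with centred arrays (5.73% of all) and 8 of the 33 members left by the filter (7.76% of all). In sedentary rats the count of 1 (4.99% of all) became 2 after quantile normalization (1.75% of all) and 2 of 33 with the filter (8.67% of all). It became 0 with trend and robust eBayes (4.4% of all) and 4 in a fit of the compared groups alone (6.64% of all). In trained rats the count of 2 (0.0966% of all) became 1 with centred arrays (0.0644% of all) and 0 with trend and robust eBayes (0.0677% of all). Leaving out 1 array gave 3 to 11 over training, 0 to 3 in sedentary rats (highest without LCR trained rat 2) and 0 to 2 in trained rats. The shares of all probe sets then ran from 1.68% to 8.3%, from 0.113% to 6.42% and from 0.0387% to 0.171%. With the rat number as a replicate block, the counts were 3 over training, 0 in sedentary and 1 in trained rats (against 5.16%, 9.66% and 0.0644% of all probe sets called). Between groups, deviations of rats of the same number had correlations of -0.23 to 0.26. Rats of different numbers were not compared, so whether the number pairs rats was not settled. For training in HCR, in LCR, on average, and for the difference in response, the count was 0 in every alternative, the block included. The RT1-Ba calls over training held in all 21 alternatives, that of Ciita in 20 (lost under the block, adjusted p = 0.0684), of RT1-CE10 in 10 and of RT1-S3 in 5 or 6. The 3 probe sets with a 2-level pattern became 2 after quantile normalization, 5 with centred arrays, 1 with a smallest gap of 1.5 log2 units and 7 with 30% of the range, and leaving out 1 array (chosen after the data were seen) gave 3 to 5. The signal of a dim probe set depends on background and on sequence, which limits RT1-A3, RT1-Bb 1371065_at and RT1-CE5 1388254_a_at. The causes of these shifts were not tested.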
